A study of Mus musculus with 4 samples.

Results

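The 10 genes described here encode the glucose transporter Glut1 (Slc2a1), the hexokinases Hk1 and Hk2, the phosphofructokinase subunits Pfkl and Pfkp, and Aldoa, Gapdh, Pgk1, Eno1 and Ldha. They were taken by symbol from the 32290 features of the count tables. These symbols named 11 rows, because Aldoa stood 2 times, and the second Aldoa row held no UMI. All 10 genes passed the filter on low counts in each of the tests below.

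Glycolysis splits glucose into pyruvate in the cytosol. Glucose enters through facilitative transporters of the Slc2a family, hexokinase phosphorylates it and so keeps it in the cell, and phosphofructokinase makes the committed step. Aldolase, Gapdh, Pgk1 and enolase carry the carbon through the later steps, and lactate dehydrogenase turns pyruvate into lactate. Several of these steps have isozymes that differ between tissues, and many of the genes are known targets of the hypoxia-inducible factor HIF1. In adipose tissue, the route is known to be used by stromal cells and by activated lymphocytes and macrophages.

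Adipose tissue (AT) of mice had been profiled by single-cell RNA sequencing in 4 groups set by genotype and depot, with 1 library per group. WT mice were Tie2e-cre; TERT+/+; mTmG and KO mice were Tie2e-cre; TERTfl/fl; mTmG, so both carried the Cre recombinase driven by Tie2e, which the study used as an endothelial promoter, and the mTmG reporter. All mice were male, 7 months old and on a high-fat diet (HFD) for 5 months. Each genotype gave a subcutaneous library (SC, inguinal AT in the study's methods) and an intraperitoneal visceral library (IP, gonadal AT there). How many mice were pooled per library is not given, and the labels name both cells and nuclei as loaded material.

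The 4 tables held 4927 barcodes and 10015201 to 15533961 UMIs each, and 4020 cells were kept, with a median of 6905 to 13047 UMIs per cell. Tert, the gene targeted in the endothelium, had 3 UMIs in WT_SC, 2 in KO_SC, 8 in WT_IP and 9 in KO_IP, none of them in a cell with endothelial markers, so it could not check the labels. The KO_SC and WT_IP libraries shared 93 barcodes, against 0 or 1 for every other pair. The KO_SC copies had a median of 1.71% of the UMIs of their WT_IP partners, and a median of 99.1% of their genes were also seen in the partner. Of the 199 barcodes of KO_SC with stromal markers, 74 were such copies. They were left out of KO_SC, and the values with them are given where they matter. Haemoglobin transcripts, which come from red cells, were higher in the WT libraries than in the KO libraries of the same depot in each class below, for example 8183 CPM (UMIs scaled to the total UMIs of the class) in stromal cells of WT_SC and 34.9 CPM in those of KO_SC.

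A cell took the class with the most marker genes detected, and no marker was a member. Adipose stromal cell-like (ASC), T cell-like (T) and B cell-like (B) cells had at least 20 cells in every library. In the order WT_SC, KO_SC, WT_IP and KO_IP, there were 103, 125, 282 and 212 ASC, 455, 1152, 121 and 126 T and 305, 467, 21 and 24 B. ASC were the deepest, with a median of 14659 to 23098 UMIs against 7642 to 9165 in T and 4900 to 7310 in B. All 8 ASC markers were detected in ASC of every library, at a summed 24039 to 28821 CPM, and at 5.64 to 35.9 CPM in T and B. UMIs of a class were summed per library and scaled to CPM of that sum. Fewer UMIs of a gene per cell and a different mix of cells within a class cannot be told apart in such sums. In T, 1 cell of WT_IP held 33.3% of the members' UMIs and 15.3% of all UMIs of its class. In KO_IP, 1 cell held 22.1% of the members' UMIs. Tests and KO against WT ratios were therefore also made without the deepest cell of each class and library. Levels are compared for 1 gene between groups and not between genes, since counts of 3' ends carry no length scaling.

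All 10 genes had promoter entries in RefSeq sequence of GRCm38.p6, the build named mm10 in the submitters' processing notes. The 250 bases before the RefSeq start, which differs from the GENCODE start for Slc2a1 and Ldha, are shown for Hk2, Slc2a1, Pfkl and Ldha. ACGTG on either strand, the core letters of a HIF1 site, is in capitals. CACGTG holds it on both strands and counts 2 times.
Hk2, chr6:82774455-82774704, minus strand: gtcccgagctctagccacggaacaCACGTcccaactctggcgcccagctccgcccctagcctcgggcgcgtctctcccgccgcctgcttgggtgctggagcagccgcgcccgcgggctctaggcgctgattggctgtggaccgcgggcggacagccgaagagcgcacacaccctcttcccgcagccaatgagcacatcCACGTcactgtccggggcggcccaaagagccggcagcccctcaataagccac
Slc2a1, chr4:119108495-119108744, plus strand: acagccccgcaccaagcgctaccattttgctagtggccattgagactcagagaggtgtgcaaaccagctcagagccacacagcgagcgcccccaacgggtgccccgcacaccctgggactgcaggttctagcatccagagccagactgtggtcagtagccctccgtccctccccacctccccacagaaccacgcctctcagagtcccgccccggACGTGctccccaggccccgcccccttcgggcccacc
Pfkl, chr10:78009808-78010057, minus strand: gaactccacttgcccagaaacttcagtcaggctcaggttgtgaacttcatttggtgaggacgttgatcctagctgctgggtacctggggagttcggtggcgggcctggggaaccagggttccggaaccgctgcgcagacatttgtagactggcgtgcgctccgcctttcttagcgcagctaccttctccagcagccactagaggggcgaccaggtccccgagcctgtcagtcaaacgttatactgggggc
Ldha, chr7:46845554-46845803, plus strand: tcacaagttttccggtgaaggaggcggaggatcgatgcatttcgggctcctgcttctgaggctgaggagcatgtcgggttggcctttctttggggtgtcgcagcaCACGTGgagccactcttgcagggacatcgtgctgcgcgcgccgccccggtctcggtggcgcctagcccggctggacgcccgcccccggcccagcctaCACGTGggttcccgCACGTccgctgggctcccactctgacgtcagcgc
Hk2, which was high in ASC, had 2 matches of ACGTG in this window. Slc2a1, which was low there, had 1, and Pfkl, also low in ASC, had none. The Ldha window shown had 5 matches, and its other listed promoter had none. Among members not shown, Pfkp, higher in ASC, had none. Pgk1, lower in ASC, had 2, and Gapdh and Eno1, also lower there, had none. Over all 16 promoter entries of the 10 genes, 6 entries of 5 genes held ACGTG, while 16.6% of the 32851 promoters in the RefSeq table did. A second form of the core, GCGTG, which is not in capitals above, stood in 9 entries of 7 genes and in 28.2% of all promoters. In the windows shown, GCGTG had 1 match each in Slc2a1 and Pfkl and 0 in Hk2 and Ldha. A match of 5 letters is a description of the sequence and not a mapped site.

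Hk2 and Pfkp stood higher in ASC than in the mean of T and B, and Slc2a1, Pfkl, Eno1, Gapdh, Pgk1 and Ldha stood lower. Hk1 and Aldoa did not pass this test. Of the 10 members, 8 passed edgeR's quasi-likelihood test with Benjamini-Hochberg adjustment over all genes, where 69.8% of 11031 genes tested did. The median log2 fold change was -0.48 over the members and 0.07 over all genes. With T set against ASC and B, 8 members were higher and Hk2 was lower (background 44.3% called), and with B set against ASC and T, 3 were higher and 5 lower (background 49.8%). Without WT_SC, 5 instead of 8 members passed in B, and Eno1, Hk1 and Pgk1 did not. The p-values measure the spread over 4 libraries from 4 conditions, since no condition had a second library.

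**Figure D1:**
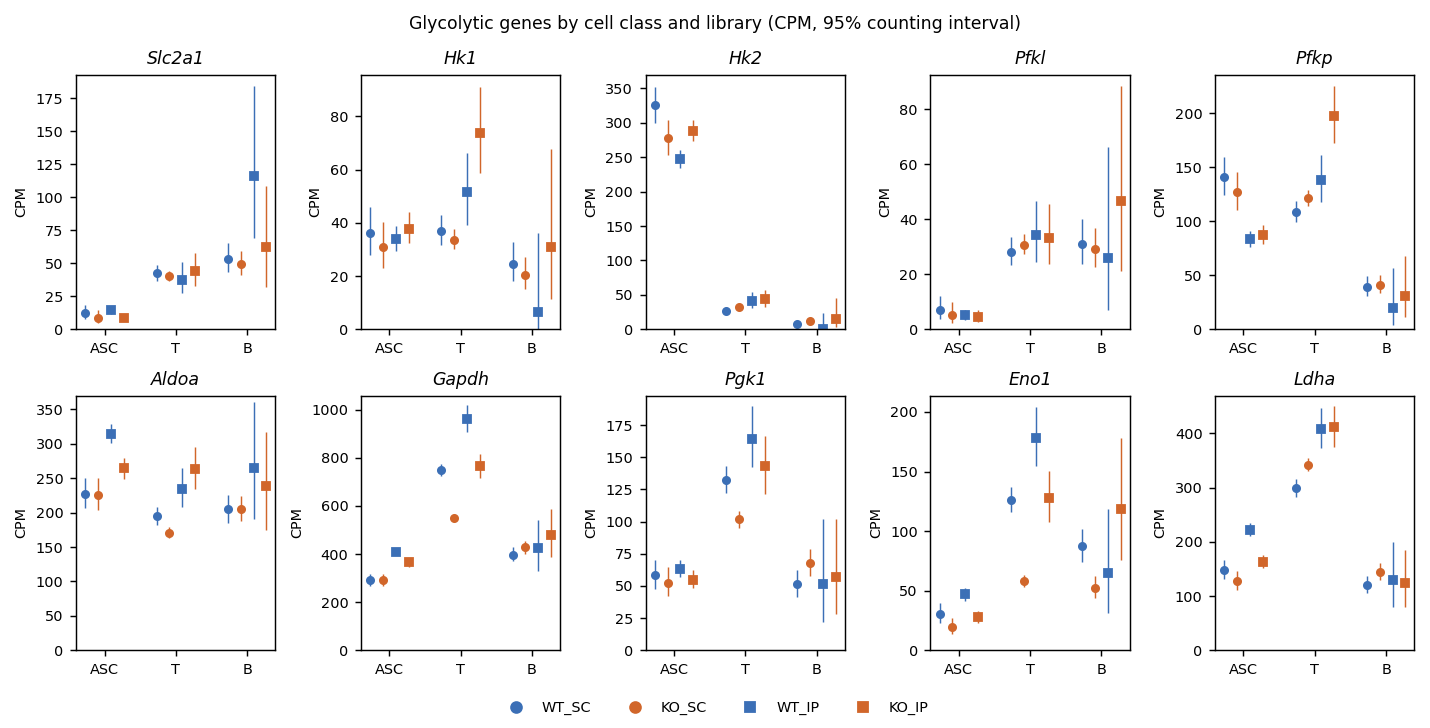
Levels of the 10 genes in ASC, T and B of each library, in CPM of the class total on a linear axis from 0, with 95% Poisson intervals for counting error. Blue is WT, orange is KO, circles are SC and squares are IP. Hk2 lies between 247 and 325 CPM in ASC and at or below 43.8 CPM in T and B.

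Slc2a1 encodes the basal glucose transporter. It reached 12.4 CPM in ASC of WT_SC, 8.86 in KO_SC, 14.6 in WT_IP and 8.51 in KO_IP. T had 42.5, 40.2, 37.7 and 43.8 CPM in the same order, and B had 53.5, 49.5, 116 and 62.1 CPM. All 4 ASC values lay below all T and B values, and the range of T lay below that of B. The log2 difference of ASC from T was -1.86 ± 0.24 (SE; edgeR adjusted p = 1.72e-05) and that from B was -2.45 ± 0.27 (4.78e-06). T and B, the neighbours in that order, did not differ beyond their spread (edgeR adjusted p = 0.0881). The count of B in WT_IP rested on 18 UMIs.

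Hexokinase makes the first step, with Hk1 in most tissues and Hk2 known from muscle and fat. Hk2 reached 325 CPM in ASC of WT_SC, 278 in KO_SC, 247 in WT_IP and 288 in KO_IP. In T it had 26.9, 32.0, 41.1 and 43.8 CPM, and in B 6.96, 12.3, 0 and 15.5 CPM, where 0 UMIs in WT_IP allow up to 19.4 CPM. The groups did not overlap, and the order ASC, T, B held at each step. ASC exceeded T by 3.11 ± 0.23 on the log2 scale (edgeR adjusted p = 8.59e-08) and B by 4.90 ± 0.30 (2.93e-08), and T exceeded B by 1.79 ± 0.31 (0.00091). The size of the fitted differences from B depends on how the 0 in WT_IP enters the fit. Between T and B, 27.5% of all genes were called, and 6 members were, all of them higher in T (Hk1, Hk2, Pfkp, Gapdh, Pgk1 and Ldha).

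Hk2 was uneven among stromal cells. At least 1 Hk2 UMI was found in 54.4%, 53.6%, 55.3% and 54.7% of ASC in WT_SC, KO_SC, WT_IP and KO_IP, against 10.8% to 22.2% of T and 0% to 8.33% of B. B had the lowest shares, and the part of free RNA in any class was not measured. When every cell was thinned to 3000 UMIs, these shares were 34.8% to 38.3% in ASC, 4.87% to 10.1% in T and 0% to 3.06% in B. Thinning left out 15 to 32 shallower ASC per library. The median ASC had 1 Hk2 UMI, while the top cell of WT_SC had 80 and held 13.3% of that library's Hk2 UMIs in ASC. Hk1 was flat by comparison, at 30.7 to 37.8 CPM in ASC and 33.7 to 73.6 CPM in T, with lower values in B (6.47 to 31.0 CPM). For Hk1, T exceeded B by 0.93 ± 0.24 (edgeR adjusted p = 0.0118), and ASC did not pass the test against T (adjusted p = 0.13) or against B (0.0534).

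Phosphofructokinase subunits split by class. Pfkl, the liver-type subunit, had 7.03 CPM in ASC of WT_SC, 5.32 in KO_SC, 5.04 in WT_IP and 4.48 in KO_IP, and 28.2, 30.8, 34.3 and 33.3 CPM in T. B had 31.1, 29.1, 25.9 and 46.6 CPM. T and B overlapped, and all of their values lay above those of ASC, at log2 differences of ASC of -2.48 ± 0.22 from T (edgeR adjusted p = 6.79e-07) and -2.52 ± 0.26 from B (3.02e-06). Pfkp, the platelet-type subunit, had 141, 127, 83.2 and 87.1 CPM in ASC, 109, 121, 138 and 197 CPM in T and 39.1, 40.9, 19.4 and 31.0 CPM in B. Here ASC and T overlapped (adjusted p = 0.243), while ASC exceeded B by 1.64 ± 0.26 (edgeR adjusted p = 0.000106) and T exceeded B by 1.93 ± 0.26 (0.000114). In T of IP, the top cell held 11.2% of the Pfkp UMIs in WT and 8.89% in KO.

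**Figure D2:**
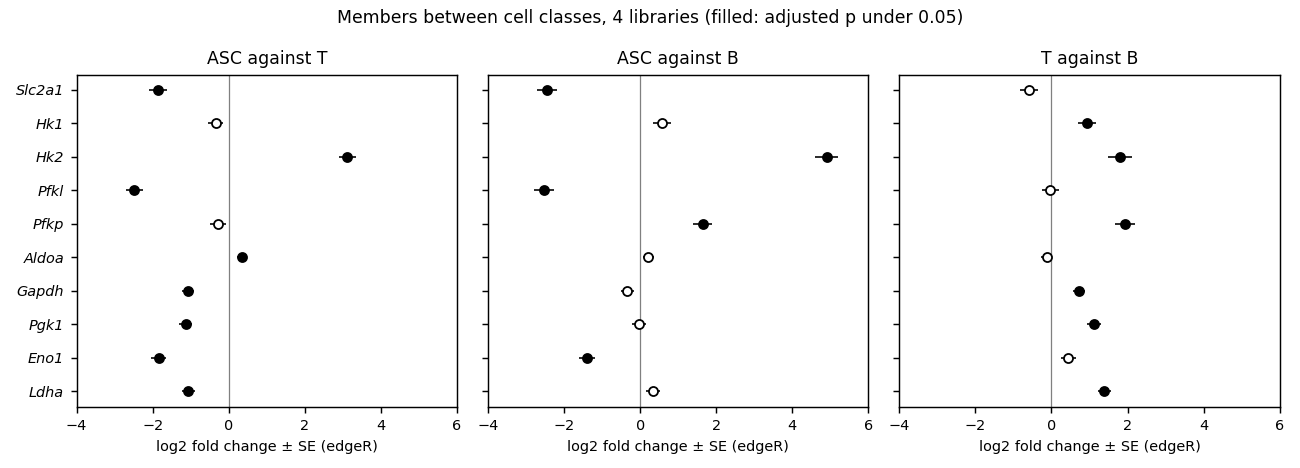
Log2 fold changes of the 10 genes between pairs of cell classes, from the edgeR fit over 12 sums of 3 classes in 4 libraries. Bars are approximate standard errors derived from edgeR's F statistic. Filled points have an adjusted p under 0.05. Hk2 is the highest and Pfkl the lowest point when ASC are set against T or against B.

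Of the members from aldolase to enolase, Gapdh, Pgk1 and Eno1 were higher in T than in ASC, and Aldoa was not. Other enzymes of this stretch differed in direction, as Tpi1 was higher in ASC than in T (0.75 ± 0.21, edgeR adjusted p = 0.00694) and Pgam1 was not called (0.06, adjusted p = 0.76). Gapdh had 291 to 410 CPM in ASC, 551 to 963 in T and 398 to 481 in B, and T exceeded ASC (ASC minus T -1.06 ± 0.16, edgeR adjusted p = 6.11e-05). Pgk1, the first ATP-yielding enzyme, had 52.6 to 63.4 CPM in ASC, 102 to 164 in T and 51.4 to 67.5 in B. ASC and B overlapped for Pgk1, and the difference of ASC from T was -1.14 ± 0.16 (edgeR adjusted p = 3.60e-05). Eno1 had 30.8 CPM in ASC of WT_SC, 19.5 in KO_SC, 47.0 in WT_IP and 28.0 in KO_IP. In T it had 126, 58.1, 178 and 128 CPM, and in B 87.3, 52.4, 64.7 and 119 CPM. All ASC values lay below all T and B values, while T and B overlapped and did not pass the test (edgeR adjusted p = 0.132). ASC differed from T by -1.84 ± 0.19 (adjusted p = 2.70e-06) and from B by -1.40 ± 0.22 (9.44e-05). Aldoa stood at 226 to 315 CPM in ASC, 171 to 263 in T and 205 to 265 in B, and its small excess in ASC over T, 0.34 ± 0.14 (edgeR adjusted p = 0.0412), was lost under some of the settings tried, for example without KO_SC (adjusted p = 0.125).

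Lactate dehydrogenase A closes the route. Ldha had 148 CPM in ASC of WT_SC, 128 in KO_SC, 222 in WT_IP and 163 in KO_IP. In T it had 299, 342, 409 and 412 CPM, and in B 121, 145, 129 and 124 CPM. T lay above both other classes without overlap, by 1.39 ± 0.18 over B (edgeR adjusted p = 9.18e-05) and by 1.07 over ASC (ASC minus T -1.07 ± 0.17, adjusted p = 0.000112). ASC and B overlapped (adjusted p = 0.135). The Ldha difference of ASC from the mean of T and B (-0.37 ± 0.15, adjusted p = 0.0466) was lost in most settings tried, for example without KO_SC (adjusted p = 0.325) and without the deepest cells (0.288). Of all genes, 67.8% were called between ASC and T and 65.1% between ASC and B, against 8 and 5 of the 10 members (8 by DESeq2 between ASC and B).

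Reads of some members cannot be placed with certainty. Of the 25-base words in the last 500 bases of the longest coding transcript, 96.2% of those of Gapdh and 87.2% of those of Eno1 also stood in other annotated genes, against 38.0% for Aldoa, 12.2% for Pgk1, 3.39% for Hk2 and 0% for the other 5 genes. Eno1 shared 87.0% of them with its copy Eno1b, which had 90 UMIs against 3081 of Eno1. Reads of Eno1 or Gapdh that matched a copy equally well may have been dropped, and how many were lost in each library was not measured. The genes themselves are protein coding in GENCODE on GRCm38, with Hk2 at chr6:82725025-82774454, Slc2a1 at chr4:119108711-119137983, Pfkl at chr10:77986947-78010083, Eno1 at chr4:150236721-150248879 and Ldha at chr7:46841475-46855627.

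Other genes of the route were read from a list of 43, of which 25 passed the filter of the cell type test. In ASC against T and B, 13 were higher and 7 lower, with a median log2 fold change of 0.66 against 0.07 over all genes. The 13 were Mpc2, Slc2a8, Txnip, Pdk4, Eno2, Tpi1, Ldhb, Pfkfb4, Bsg, Pdk2, Myc, Pgam1 and Pdha1, and the 7 were Pfkfb3, Pdk1, Slc2a3, Gpi1, Pkm, Mpc1 and Pdk3. In T against ASC and B, 6 were higher (Pfkfb3, Pdk1, Slc16a1, Slc2a3, Pkm and Hif1a) and 4 lower (Txnip, Pfkfb4, Bsg and Myc). B had 4 higher (Pfkfb3, Pfkfb4, Mpc1 and Pdk3) and 8 lower (Mpc2, Slc16a1, Ldhb, Pkm, Bsg, Hif1a, Pgam1 and Pdha1). Of all 11031 genes tested, 69.8% were called in ASC, 44.3% in T and 49.8% in B in these contrasts.

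Isozymes of the same steps showed several class patterns. Eno2, the enolase best known from neurons, had 7.03, 11.8, 15.4 and 16.8 CPM in ASC of WT_SC, KO_SC, WT_IP and KO_IP, and at most 2 UMIs in any T or B sum. Ldhb, the heart-type subunit, had 12.4, 21.9, 42.3 and 62.3 CPM in ASC and 18.2, 18.6, 5.14 and 3.51 CPM in T, and no UMI in B of any library. Slc2a3, a transporter of high affinity, had 4.87, 10.0, 18.7 and 37.4 CPM in ASC and 32.7, 27.1, 60.0 and 70.1 CPM in T. Slc2a4, the insulin-responsive transporter of adipocytes, had 0 UMIs in all 12 sums. Hk3, Pfkm, Aldoc and Eno3 did not reach the filter of the cell type test, with at most 1.77, 7.57, 7.50 and 5.20 CPM.

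Cells outside these 3 classes added a few levels without a test. Cells with endothelial markers, in which the study deleted Tert, numbered 17 in WT_IP, 4 in KO_IP, 2 in WT_SC and 1 in KO_SC, too few to compare genotypes. In the 17 cells of WT_IP, Slc2a1 had 10 UMIs or 34.1 CPM (95% interval 16.3 to 62.7) and Hk2 had 0 UMIs, which allows up to 10.2 CPM. Aldoa stood at 521 CPM there (442 to 611) and the 10 members together at 1622 CPM. The 60 macrophage-like cells of WT_IP had 52.9 CPM of Hk2 (40.2 to 68.4) and 837 of Gapdh. Neutrophil-like cells, 22 in KO_IP, had 223 CPM of Slc2a1 (144 to 329) from 25 UMIs. Mesothelial-like cells, 17 in KO_IP, had 2.79 CPM of Hk2 (0.338 to 10.1) and 384 of Aldoa. The members together made up 1168 to 1441 CPM in ASC, 1482 to 2251 in T and 1018 to 1205 in B.

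Depots were compared next, IP against SC with genotype as a block, which leaves 1 residual degree of freedom. In ASC only Pfkp passed among the members, lower in IP, while 19.6% of 11505 genes were called. It had 141 and 127 CPM in SC and 83.2 and 87.1 CPM in IP of WT and KO, without overlap, a log2 difference of -0.72 ± 0.16 (edgeR adjusted p = 0.00249). DESeq2 did not call it (adjusted p = 0.126) at the same fold change. In both genotypes Ldha, Gapdh and Aldoa were higher in ASC of IP beyond counting error, with log2 ratios of 0.59 and 0.35 for Ldha in WT and KO. None of these genes passed the edgeR test (adjusted p = 0.105 for Ldha). In WT alone Eno1 was also higher (0.60, 0.19 to 1.04) and Hk2 lower (-0.40, -0.53 to -0.26). Beyond counting error, 2364 genes were higher and 2154 lower of 11733 in WT. In KO, 2449 were higher and 1946 lower of 11378. Of the other list of 43, Txnip, Slc2a3 and Ldhb were higher and Slc16a1 and Pdha1 lower in IP. Slc16a1, the lactate and pyruvate transporter Mct1, fell from 48.7 and 49.6 CPM in SC to 15 and 14.1 CPM in IP (log2 fold change -1.82 ± 0.22, edgeR adjusted p = 2.32e-06).

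Among T, no member passed between depots with edgeR or with DESeq2, while 10.5% of 10142 genes did by edgeR, and 2 members had an unadjusted p under 0.05. Within each genotype most members nevertheless stood higher in T of IP beyond counting error. These were 8 members in WT and 7 in KO, with 0 lower in either, while 1912 genes were higher and 945 lower of 9918 in WT and 3474 higher and 885 lower of 10808 in KO. The log2 ratios in WT and KO were 0.50 and 1.14 for Eno1, 0.48 and 1.14 for Hk1, 0.34 and 0.70 for Pfkp and 0.27 and 0.63 for Aldoa, beside a median over all genes of 0.11 and 0.32. These within-genotype counts and ratios were not made without the deepest cells. In T, 1 cell held 33.3% of the members' UMIs in WT_IP and 22.1% in KO_IP, and counting intervals do not cover such unevenness. In the edgeR test Eno1 came closest, at 126 and 58.1 CPM in SC and 178 and 128 CPM in IP (log2 0.60 ± 0.21, edgeR adjusted p = 0.0525). It and Hk1 passed when library totals were used without TMM, which moved the median of all genes by 0.21. Without the deepest cells, Eno1 stood at 0.34 and was not called, and Gapdh, Ldha and Pgk1 turned to the other direction. Cell cycle transcripts, 10 genes, were at 756 and 699 CPM in T of IP and at 300.3 and 118 CPM in T of SC, in WT and KO, and their part in these values was not tested. On the list of 43, Slc2a3, Slc2a8 and Tpi1 were higher and Pdk1, Txnip, Slc16a1 and Ldhb lower in T of IP. No member was called in B by edgeR or DESeq2 (background 0.383% of 7572 genes), with 1 at an unadjusted p under 0.05, and the IP sums of B rested on 171 and 233 UMIs of all members. Within a genotype, Slc2a1 was higher in B of IP in WT (1.15, 0.31 to 1.85) and Eno1 in KO (1.21, 0.47 to 1.83), and the other members lay within counting error or had too few UMIs.

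**Figure D3:**
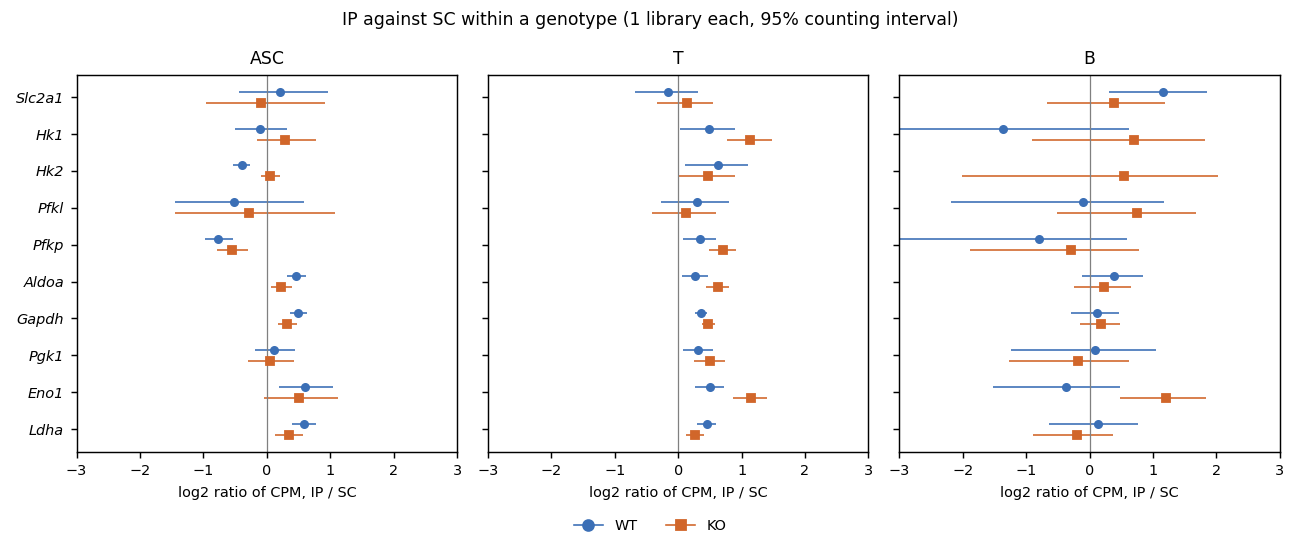
Log2 ratios of CPM, IP over SC, for the 10 genes within WT (blue circles) and within KO (orange squares), 1 library on each side, with 95% intervals for counting error; genes under 20 UMIs in a pair are not drawn, and intervals of Hk1 and Pfkp in B run past the left edge. Pfkp lies below 0 in ASC of both genotypes (-0.76 and -0.55).

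The main question of the design was KO against WT. Within a depot each genotype had 1 library, so KO and WT are compared there without a test, and the intervals below cover counting error and not differences between mice. A fit over both depots with depot as a block was not run, since the depots of a genotype were not taken as replicates. A gene was called where the ratio passed 1.5-fold and its interval left out no change. Eno1 was the member called most often, lower in KO in ASC of both depots and in T and B of SC. Slc2a1 was also lower in KO in ASC of IP. No member was called higher in KO in any class or depot in the main setting, while some other settings called members higher in T of IP. Over all genes, 2.55% to 9.47% were called higher and 3.55% to 10.2% lower, depending on the comparison.

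In ASC of SC, Eno1 had 19.5 CPM in KO against 30.8 in WT, from 33 and 57 UMIs, a log2 ratio of -0.65 (-1.33 to -0.02). It was the 1 member called lower (background 5.14% of 9861 genes), and 0 were called higher (background 5.1%). The call was lost with the shared barcodes kept in KO_SC, with stricter classes, with classes from clusters and without the deepest cells, where 0 members were called, although all settings gave ratios between -0.86 and -0.54. Hk2 had a ratio of -0.23 (-0.41 to -0.05), under the fold required. The summed members had a log2 ratio of -0.13 (-0.22 to -0.04). Stress transcripts of cell isolation, 14 genes such as Fos and Jun, were at 13824 CPM in KO and 10824 CPM in WT. In ASC of IP they went the other way, at 9192 CPM in KO and 11001 CPM in WT.

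In ASC of IP, Eno1 and Slc2a1 were called lower (background 4.37% of 12321 genes) and 0 members higher (7.56%). Eno1 had 28.0 CPM in KO and 47.0 in WT, from 125 and 289 UMIs, a log2 ratio of -0.74 (-1.06 to -0.44), and Slc2a1 had 8.51 and 14.6 CPM, from 38 and 90 UMIs, a ratio of -0.77 (-1.37 to -0.22). Ldha had 163 and 222 CPM (-0.44, -0.57 to -0.31), Aldoa 264 and 315 CPM (-0.25, -0.36 to -0.15) and Gapdh 366 and 410 CPM (-0.16, -0.26 to -0.07), all lower beyond counting error and under 1.5-fold. Hk2 went the other way, with 288 CPM in KO and 247 in WT (0.22, 0.12 to 0.33), and shrank to 0.06 when each cell had equal weight. Beyond counting error, 5 members were lower and 1 higher, beside 1658 lower and 2334 higher of 12321 genes. Across the settings tried, Eno1 stayed between -0.80 and -0.70 and Slc2a1 between -0.97 and -0.68. The hypoxia list without glycolytic genes, 14 genes such as Vegfa and Bnip3, stood at 1003 CPM in KO and 828 CPM in WT. In ASC of SC this list went the other way, at 962 CPM in KO and 1015 CPM in WT. Haemoglobin in ASC of IP stood at 63.6 CPM in KO and 332 CPM in WT. Of the marker lists of other cell types, 8 genes each, neutrophil markers summed to 112 CPM in KO and 5.69 CPM in WT, mesothelial markers to 263 and 145 CPM and mural markers to 66.3 and 119 CPM, against 28821 and 27081 CPM of the ASC markers. Their part in these ratios was not tested.

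Other genes of the route in ASC are listed with the same rule and the same backgrounds as the members. In SC, Ldhb and Myc were called higher and Pfkfb2 and Bpgm lower in KO, of 25 compared. In IP, Slc2a3, Ldhc, Hif1a and Pfkm were called higher and Pdk4 lower, of 31 compared. Slc2a3 had 37.4 CPM in KO_IP and 18.7 in WT_IP (log2 ratio interval 0.65 to 1.36), opposite in direction to the other transporter Slc2a1. Hif1a, the oxygen-sensitive subunit of HIF1, had 152 and 97.0 CPM (0.65, 0.49 to 0.81). Bpgm, an enzyme best known from red cells, had 6.50 CPM in KO_SC and 25.4 in WT_SC, beside the haemoglobin levels given above.

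Among T of SC, Eno1 was the member called lower (background 10.2% of 11306 genes), and 0 were higher (2.55%). It had 58.1 CPM in KO and 126 in WT, from 552 and 582 UMIs, a log2 ratio of -1.12 (-1.29 to -0.95), and ranged from -1.12 to -0.98 over the settings. Gapdh had 551 and 751 CPM (-0.45, -0.51 to -0.38), Pgk1 102 and 132 CPM (-0.38, -0.53 to -0.23) and Aldoa 171 and 195 CPM (-0.19, -0.31 to -0.07). Ldha and Pfkp were higher in KO beyond counting error, at 342 against 299 CPM (0.19, 0.10 to 0.29) and 121 against 109 CPM (0.16, 0.00 to 0.31). Over all genes, 933 were higher and 2815 lower beyond counting error, and the median stood at -0.14 in this comparison. Cell cycle transcripts were at 118 CPM in KO and 300.3 CPM in WT, and haemoglobin at 730 and 2777 CPM, and their part was not tested. Txnip, Tpi1 and Myc were called lower on the list of 43, of 30 compared.

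Among T of IP, no member was called in either direction (background 5.75% lower and 9.47% higher of 8264 genes). Eno1 had 128 CPM in KO and 178 in WT (-0.48, -0.79 to -0.17). This value came down to -0.10 without the deepest cells and turned to 0.14 under stricter classes, so it had no stable direction. The summed members turned in the same way, from -0.10 to 0.03 without the deepest cells. Gapdh was lower in KO, 765 against 963 CPM (-0.33, -0.46 to -0.20), and ranged from -0.42 to 0.05 over the settings. Hk1 had 73.6 CPM in KO and 51.4 in WT (0.51, 0.02 to 1.02) and ranged from 0.23 to 0.78. Pfkp was higher in KO, 197 against 138 CPM (0.51, 0.22 to 0.82), and stayed above 0 in all settings (0.37 to 0.83). Slc16a1, Tpi1 and Pgam1 were called lower on the list of 43, of 19 compared.

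In B of SC, Eno1 had 52.4 CPM in KO and 87.3 in WT, from 128 and 163 UMIs (-0.73, -1.08 to -0.39). It was the 1 member called lower (background 5.49% of 8902 genes), with 0 higher (2.57%). Ldha and Pgk1 lay above 0 beyond counting error, at ratios of 0.26 and 0.39, and stood at 0.09 and 0.07 with classes from clusters and at 0.09 and 0.16 without the deepest cells. Over all genes, 567 were higher and 1050 lower beyond counting error. In B of KO_SC, 1 cell held 12.2% of the members' UMIs. Cell cycle transcripts were at 137 CPM in KO and 26.2 CPM in WT, and their part was not tested. In B of IP only 5 members had 20 UMIs in both libraries together, and 0 were called (background 3.55% lower and 6.24% higher of 2675 genes). Eno1 had 23 UMIs in KO and 10 in WT there, a ratio of 0.84 (-0.25 to 2.11). Not compared were Hk1 with 6 and 1 UMIs, Hk2 with 3 and 0, Pfkl with 9 and 4, Pfkp with 6 and 3 and Pgk1 with 11 and 8 in KO and WT. On the list of 43, Slc2a3 was called higher and Slc16a1 and Bpgm lower in SC, and Txnip lower in IP.

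Counting Eno1b together with Eno1 left the levels nearly as they were, for example 60.7 CPM in KO_SC and 129 CPM in WT_SC in T. Eno1b had few UMIs, and the sum cannot restore reads dropped for matching both genes. It is therefore no test of such a loss. Whether both depots were taken from the same mice is not given, and classes of 1 library share its mice, so the 4 calls of Eno1 are not 4 independent observations. 

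**Figure D4:**
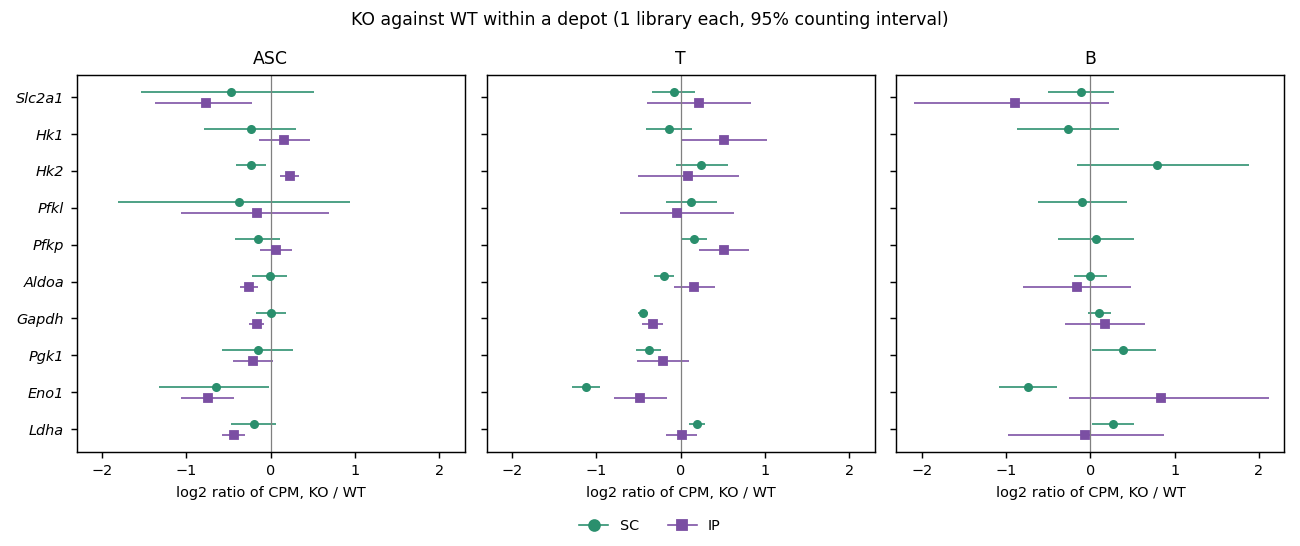
Log2 ratios of CPM, KO over WT, for the 10 genes in ASC, T and B of SC (green circles) and IP (purple squares), 1 library on each side, with 95% intervals for counting error; genes under 20 UMIs in a pair are not drawn. Eno1 lies below 0 in every pair except B of IP, with its lowest value in T of SC (-1.12).

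Genes with patterns most like each member were read from Pearson correlations of log2(CPM + 1) over the 12 sums of class and library, among 11030 other genes. These points share libraries and class differences, so the values are descriptions. Hk2 was closest to Luzp1 (0.99) and Creb3l2 (0.99), Pfkl to Ly9 (0.99) and Psd4 (0.99), and Slc2a1 to Mdn1 (0.99) and Rpf1 (0.98). Hk1 was closest to Cnnm2 (0.97) and Poln (0.96), and Pfkp to Kidins220 (0.97) and Rab4a (0.97). Eno1 was closest to Actb (0.97) and Eif3g (0.96), Gapdh to Atp5h (0.97) and Ptpre (0.95), and Pgk1 to Ddx43 (0.99) and Eomes (0.98). Ldha stood nearest to Trpm6 (0.97) and Serpinb6b (0.96), and Aldoa to Mrps21 (0.91) and Anapc13 (0.91). Actb, the cytoskeletal actin closest to Eno1, had 2431 CPM in T of KO_SC and 3625 in T of WT_SC. In T of IP it had 4063 CPM in KO and 4046 in WT. In ASC it had 1598 and 1811 CPM in SC and 2080 and 2245 CPM in IP, in KO and WT. In B the values were 2513 and 2959 CPM in SC and 3884 and 3170 CPM in IP.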

How the data were processed

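Each deposited table held unnormalised UMI counts of genes by barcodes. The authors had built them from 10x 3' libraries, and the file headers name Cell Ranger 7.0.0. The submitters' processing notes name mm10 and STAR 2.6, and whether intronic reads were counted is not given in the sources used here. Barcodes were filtered to a minimum of 200 genes and a mitochondrial share of no more than 25%, and Scrublet doublets (scanpy 1.11.5, 0.556% of filtered barcodes) were removed, as were 93 KO_SC barcodes shared with WT_IP. A class needed at least 3 markers and 2 more than any other class, which left 343 cells unassigned. Doublets that the caller missed may remain, among them cells with very high UMI counts.

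Class sums were tested with edgeR 4.0.16 (quasi-likelihood, TMM, its default filter on low counts) under R 4.3.3, with library or genotype as a block, and DESeq2 1.42.0 as an alternative. KO against WT ratios used CPM with 0.5 UMI added, where the 2 libraries summed to 20 UMIs or more, with exact conditional binomial 95% intervals. Intervals of levels are exact Poisson ones and those of shares Clopper-Pearson, and a count of 0 was taken to allow 3 UMIs. The SE of a log2 fold change is its absolute value divided by the square root of edgeR's F statistic. It is approximate and need not match the p-value. Scripts were tested on simulated data. The text names the 10 members, other genes of the route where they were isozymes or called, and the 2 genes most like each member. The members and gene lists were chosen with earlier results of these data known. No replicate numbers pair the libraries.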

Additional observations from a re-analysis of the deposited data

Results flagged for a closer look

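In ASC the KO against WT ratio of Hk2 lay beyond counting error in opposite directions in the 2 depots. The log2 ratio was -0.23 in SC (-0.41 to -0.05) and 0.22 in IP (0.12 to 0.33). The difference between the depots was not tested, since each value compares 1 library with 1 other. Without the top Hk2 cell of each library the ratios were -0.11 and 0.20, and with each cell weighted equally they were 0.058 and 0.065. The top cell of WT_SC held 13.3% of the Hk2 UMIs of its class. Groups of 1 library allow no search for outlying samples.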

How the results depend on the processing

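The class differences of Hk2, Slc2a1 and Pfkl kept their direction in all 15 settings when ASC were set against T or B, for example 2.90 to 3.37 for Hk2 against T. DESeq2 called 8 members between ASC and B instead of 5, and 0 in ASC between depots instead of 1. Library totals without TMM called 2 members in T between depots instead of 0. Leaving out 1 library at a time left 5 to 8 members called in B against ASC and T, with 5 without WT_SC, where Eno1, Hk1 and Pgk1 were lost. For KO against WT in ASC of SC, 0 members were called lower instead of 1 under stricter classes, classes from clusters, shared barcodes kept, deepest cells left out and a minimum of 100 UMIs, the last because Eno1 had fewer. The summed members moved from -0.15 to -0.20 in ASC of IP under median-of-ratios size factors. In T of SC they moved from -0.24 to -0.17 with classes from clusters, -0.18 with a total free of mitochondrial, ribosomal, haemoglobin and immunoglobulin UMIs, -0.10 with median-of-ratios and -0.13 with equal weight per cell. In T of IP they turned from -0.10 to 0.27 under stricter classes, 0.13 with classes from clusters and 0.029 without the deepest cell and 0.029 without the top cell, and were -0.19 with the reduced total. The stricter classes called 1 member higher there and the clusters 2, instead of 0. In B of SC they moved from 0.04 to -0.16 with clusters, -0.12 without the deepest cells, -0.11 with equal weight and -0.10 without the top cell, and in B of IP equal weight called 1 member lower instead of 0. Beyond the constructions named, the cause was not tested. Settings with shared barcodes kept or deepest cells left out were chosen after seeing the data. Leaving out a library in the depot test leaves no residual degree of freedom, so within-genotype ratios were given instead. No paired analysis was possible because the labels carry no replicate numbers. Counts of the members were low in B of IP, where only 5 members had enough UMIs for KO against WT.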
